A study of Mus musculus with 20 samples.

Results

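The transcripts that mark the AgRP neurons of the hypothalamic arcuate nucleus (ARC) were followed through corticosterone (Cort) treatment. They comprised 9 genes, chosen by gene symbol from the 22048 genes of the count tables: the peptide genes Agrp and Npy, and the marker genes Acvr1c, Corin, Gpr6, Otp, Asb4, Calcr and Gfra1. The ARC was laser captured from frozen brain sections of male C57BL6/J mice, whose age the labels give as 10 weeks. In the study's methods acclimatization, baseline measurements and treatment follow this age, so the mice were older at collection. Vehicle mice drank 1% ethanol and Cort mice drank 75 µg/ml Cort in the same solvent, for 2 days or for 4 weeks, and each of these 4 groups had 5 samples. The 4 week mice, vehicle and Cort alike, were also fasted for 16 h and refed for 24 h on their treatment before collection, and no fast is described for the 2 day mice. The datasets were also cut, captured and sequenced differently, so that treatment length, age at collection, refeeding and platform cannot be told apart. The study left out 2 vehicle samples and 1 Cort sample per dataset as outliers of a principal component analysis, and the comparisons here are of the remaining 3 vehicle and 4 Cort samples unless stated.

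AgRP neurons release AgRP, which blocks melanocortin receptors, together with the peptide NPY and the inhibitory transmitter GABA. Fasting, ghrelin and glucocorticoids raise their peptide transcripts, leptin and insulin lower them, and their activity drives feeding. They lie beside the POMC neurons, whose melanocortin peptides act on the same receptors and reduce feeding. Most of the other 7 genes are not exclusive to AgRP neurons. Otp, Asb4, Calcr and Gfra1 in particular have other neuronal sources in or near the ARC, so that only Agrp, and to a lesser extent Npy, report the population closely.

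In the 7 samples compared, totals of counts ran from 2487063 to 5748223 at 2 days and from 1837715 to 5196364 at 4 weeks. In the 6 samples left out they ran from 1065776 to 5237795. Levels are given as CPM, counts scaled to a common library size with TMM factors, and samples by the names of the count columns. At 2 days, 5 of the 7 columns of the study's normalised table carry the values of a raw count column of another name, 4 of them a name from the other treatment group. In the order of the normalised table's names (C01 to C06 and C10) its columns hold raw columns C02, C04, C05, C01, C03, C06 and C10. By the raw names these are the vehicle samples first and then the Cort samples, under headers in number order. The raw names were followed here. With the raw names Agrp was higher with Cort, which is also the direction that the paper reports. The paper's sequencing result comes from these same samples, so it is no independent evidence for the names. At 2 days, 8 genes had an adjusted p below 0.1 with the raw names and 0 with the normalised table's names (edgeR quasi-likelihood test). The 8 included the glucocorticoid-induced genes Fam107a and Glul, both higher with Cort. Had the normalised table's names been followed, Agrp would have differed by -0.64 on the log2 scale (adjusted p = 0.997, edgeR quasi-likelihood test), with Npy at -0.20, Acvr1c at -0.43, Corin at -1.26 and Gpr6 at -0.75, so the direction of these 5 genes at 2 days rests on the raw names.

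All 9 genes were placed on the GRCm38 assembly by the GENCODE annotation. Agrp (ENSMUSG00000005705) lies on chromosome 8 from 105566698 to 105637393 on the minus strand and Npy (ENSMUSG00000029819) on chromosome 6 from 49822710 to 49829507 on the plus strand. Acvr1c is on chromosome 2 (58267453 to 58357895), Corin on chromosome 5 (72300025 to 72504473), Gpr6 on chromosome 10 (41069977 to 41072285) and Otp on chromosome 13 (94875602 to 94885130). Asb4 and Calcr share chromosome 6 with Npy (5383386 to 5433022 and 3685680 to 3764714), and Gfra1 is on chromosome 19 (58235604 to 58455909). Exons of 4 members overlap exons of other annotated genes: 11.3% of the exon bases of Agrp, 7.60% of Gfra1, 2.72% of Corin and 1.81% of Acvr1c. As the strand setting of the counting is not given in the sources used here, reads in these stretches could belong to either gene. Agrp shares exon bases with Ctcf on the plus strand and with Gm5914 on its own minus strand. Ctcf differed by -0.11 on the log2 scale with Cort at 2 days (standard error 0.25), and Gm5914 was not examined.

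RefSeq gives a promoter window, 250 bases before to 50 after a transcription start, for 8 of the 9 members (11 windows, GRCm38.p6), Agrp being the member without one. Windows of Npy, Acvr1c and Gpr6 are printed because these are the members with a window that separated Cort from vehicle most clearly in at least 1 dataset. The Npy window is chr6:49822460-49822759 (plus strand), the Acvr1c window printed chr2:58357709-58358008 (minus strand) and the Gpr6 window chr10:41072241-41072540 (minus strand). Acvr1c has another window, chr2:58324758-58325057 (minus strand), which held no match and is not printed. Capitals mark the one match found, a cyclic AMP response element (TGACGTCA).
Npy: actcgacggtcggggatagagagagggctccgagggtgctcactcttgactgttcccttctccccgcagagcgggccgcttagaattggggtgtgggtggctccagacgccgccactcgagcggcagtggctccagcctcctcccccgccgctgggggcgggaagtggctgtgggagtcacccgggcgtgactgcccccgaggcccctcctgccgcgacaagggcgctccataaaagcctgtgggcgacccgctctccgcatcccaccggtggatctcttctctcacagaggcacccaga
Acvr1c: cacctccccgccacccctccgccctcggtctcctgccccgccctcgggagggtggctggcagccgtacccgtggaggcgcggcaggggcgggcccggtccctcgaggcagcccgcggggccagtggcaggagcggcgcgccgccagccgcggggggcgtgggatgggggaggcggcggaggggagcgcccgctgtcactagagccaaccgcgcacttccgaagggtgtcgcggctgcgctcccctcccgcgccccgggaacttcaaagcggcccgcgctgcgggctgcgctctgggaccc
Gpr6: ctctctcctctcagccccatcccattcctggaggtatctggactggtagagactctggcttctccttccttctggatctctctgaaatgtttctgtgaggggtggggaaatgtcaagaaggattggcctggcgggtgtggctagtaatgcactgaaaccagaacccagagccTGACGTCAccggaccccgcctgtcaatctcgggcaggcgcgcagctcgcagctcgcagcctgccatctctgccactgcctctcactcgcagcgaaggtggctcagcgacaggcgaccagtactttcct
These windows were searched on both strands for the glucocorticoid receptor hexamer AGAACA, for the full palindromic glucocorticoid response element, in which this hexamer and its complement flank 3 free bases, and for TGACGTCA, which reads the same on both strands. None of the 11 windows of the members held the hexamer, whereas 19.0% of all 32851 promoter windows did, and the full palindrome was in 3 windows of the whole set. The response element of Gpr6 began 78 bases before the start site, and 1.79% of all windows held one. These matches describe letters in a short window only.

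Per kilobase of exon, Npy was the most abundant member in untreated ARC. In 2 day vehicle samples its level was 671 ± 150.3 CPM per kb (SD, n = 3), against 168 ± 47.6 for Agrp, 94.5 ± 17.4 for Asb4 and 44.0 ± 3.88 for Otp. Calcr (24.0 ± 2.47), Gfra1 (14.3 ± 5.86), Acvr1c (6.13 ± 1.66), Gpr6 (3.28 ± 1.13) and Corin (1.45 ± 0.559) followed on the same scale. In this order only Acvr1c and Gpr6 had sample ranges that met, at 4.58 CPM per kb in Acvr1c and 4.59 in Gpr6. The reads were amplified before sequencing, so a level per kilobase is approximate. In 4 week vehicle samples Npy (785 ± 204 CPM per kb, SD, n = 3) and Agrp (212 ± 68.4) again stood first and second without overlap. After 4 weeks of Cort this was no longer so. Npy was at 159 ± 109 CPM per kb (SD, n = 4) and Agrp at 147 ± 57.5, and their ranges, 86.5 to 320.4 and 98.9 to 229, overlapped.

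After 2 days of Cort, Agrp was raised 2.50-fold, and Npy, Acvr1c, Corin and Gpr6 were also higher but did not pass adjustment. The vehicle samples C02, C04 and C05 had 122, 219 and 169 CPM of Agrp, and the Cort samples C01, C03, C06 and C10 had 520.1, 447, 285 and 438 CPM. The lowest Cort sample was above the highest vehicle sample. The log2 fold change was 1.32 (standard error 0.20, adjusted p = 0.0103, edgeR quasi-likelihood test over 12309 genes). Agrp was 1 of 8 genes called at an adjusted p below 0.1, a background of 0.065% of the genes tested. In bulk tissue, a change in RNA per AgRP neuron cannot be told apart from a change in how many of these neurons were captured.

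Both vehicle samples that the study left out at 2 days were high in Agrp. C07 had 560.2 CPM and C09 437 CPM, within or above the range of the Cort samples compared, and the left-out Cort sample C08 had 924 CPM. Over all 10 samples the log2 fold change of Agrp was 0.81 (adjusted p = 0.92), and no member was called, where 2 of 11983 genes (0.0167%) were. With only C07 added it was 0.67 and with only C09 added 0.85 (adjusted p = 0.98 and 0.93, edgeR). The call was also lost without vehicle sample C02, the lowest of them (1.13, adjusted p = 0.15). A fit of all 10 samples that weights each by its quality (voom) gave 1.22 for Agrp (adjusted p = 0.13), also without a call.

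**Figure D1:**
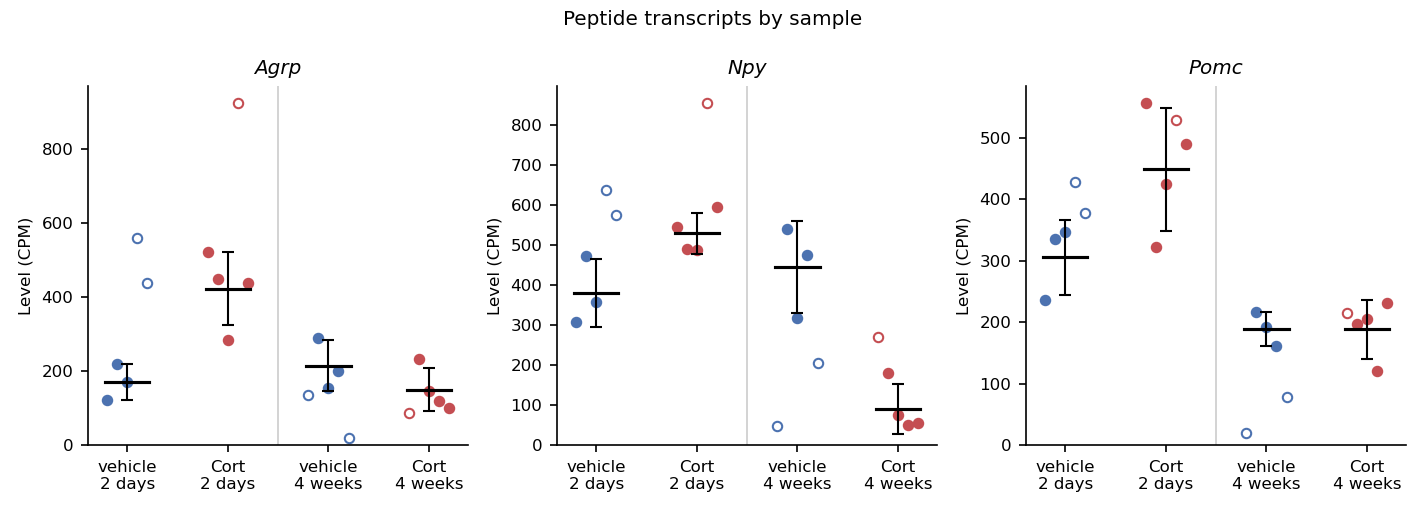
Agrp, Npy and Pomc levels (CPM, vertical axis) in each sample of the 4 groups. Filled points are the samples compared and open points those left out by the study, and black lines are the mean and SD of the filled points; at 2 days the filled Agrp points of Cort lie above those of vehicle while both open vehicle points lie among or above the Cort points, and at 4 weeks the filled Npy points of Cort lie below those of vehicle.

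Npy moved in the same direction at 2 days by a smaller amount. It was at 307, 473 and 358 CPM in vehicle samples C02, C04 and C05 and at 546, 490.0, 489 and 595 CPM in Cort samples C01, C03, C06 and C10. The groups did not overlap, but the gap between 473 and 489 CPM was small. The log2 fold change was 0.49 (standard error 0.15, adjusted p = 0.52, edgeR). Pomc, taken as the reference peptide of the neighbouring neurons, averaged 306 ± 61.0 CPM in vehicle samples (SD, n = 3) and 449 ± 100.4 CPM in Cort samples (SD, n = 4). Its log2 fold change of 0.56 (standard error 0.17, adjusted p = 0.54) was about that of Npy.

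Acvr1c encodes ALK7, a type I receptor of the TGF-β family for activin and related ligands. At 2 days it was at 42.5, 73.3 and 55.1 CPM in vehicle samples C02, C04 and C05, and at 202, 82.2, 80.2 and 179.8 CPM in Cort samples C01, C03, C06 and C10. The samples left out did not change this order. Vehicle samples C07 and C09 had 65.8 and 44.5 CPM and Cort sample C08 had 115 CPM, so that all 5 Cort samples lay above all 5 vehicle samples. The log2 fold change was 1.26 (standard error 0.31, adjusted p = 0.44, edgeR), and over all 10 samples it was 1.24 (standard error 0.27, adjusted p = 0.26). DESeq2 on the 7 samples called it (1.27, adjusted p = 0.0451). Leaving out 1 of the 7 samples gave log2 fold changes of 1.01 to 1.49 and adjusted p from 0.0496 (without Cort sample C06) to 0.999 by edgeR.

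Gpr6 encodes an orphan receptor with high constitutive coupling to cyclic AMP. It was low, at 4.73, 8.19 and 4.68 CPM in vehicle samples C02, C04 and C05 and at 9.56, 29.6, 14.8 and 13.1 CPM in Cort samples C01, C03, C06 and C10. The left-out vehicle samples (7.09 and 0.856 CPM) and Cort sample (9.42 CPM) again kept the groups apart. The log2 fold change was 1.52 (standard error 0.57, adjusted p = 0.73, edgeR). Corin encodes a membrane protease that activates the natriuretic peptide ANP. Vehicle samples C02, C04 and C05 had 7.96, 4.74 and 10.8 CPM of Corin and Cort samples C01, C03, C06 and C10 had 46.8, 19.9, 9.29 and 11.9 CPM. Cort sample C06 fell within the vehicle range, and left-out vehicle sample C09 had 36.2 CPM. Its log2 fold change of 1.501 (standard error 0.57, adjusted p = 0.74, edgeR) dropped to 0.81 without Cort sample C01.

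The remaining members moved little at 2 days. Otp, a homeodomain factor of AgRP and other hypothalamic neurons, averaged 127 ± 11.2 CPM in vehicle samples (SD, n = 3) and 155 ± 11.2 CPM in Cort samples (SD, n = 4). Its groups did not overlap, with a highest vehicle value of 139.6 CPM and a lowest Cort value of 145 CPM, but left-out vehicle sample C07 had 231 CPM and C09 had 58.8 CPM. The log2 fold change was 0.30 (standard error 0.17, adjusted p = 0.86, edgeR). Asb4, an ankyrin repeat protein of ARC neurons, averaged 372 ± 68.4 CPM in vehicle samples (SD, n = 3) and 350.0 ± 77.3 CPM in Cort samples (SD, n = 4). Calcr, the calcitonin receptor, had 94.0 ± 9.68 and 93.8 ± 22.1 CPM, and Gfra1, the co-receptor for GDNF, 78.1 ± 32.1 and 78.6 ± 21.3 CPM, in the same order and with the same n. The log2 fold changes were -0.08, 0.00 and 0.02, with standard errors of 0.17, 0.22 and 0.28. All 3 genes overlapped between groups.

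Read over the 9 members at 2 days, 5 had p below 0.05 and were higher (Agrp, Npy, Acvr1c, Corin and Gpr6), where 3.14% of all genes tested were (5.97% in either direction). Groups were separate and higher with Cort in 5 members (Agrp, Npy, Acvr1c, Gpr6 and Otp), against 3.02% of all genes. Over all 10 samples the groups were separate in 2 members, Acvr1c and Gpr6, against 0.804% of the genes, and 3 members had p below 0.05, against 5.28%. The median log2 fold change of the members was 0.49 and that of all genes 0.02. Since the members share a cell type and were chosen with results of these samples known, these counts describe them and test nothing.

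**Figure D2:**
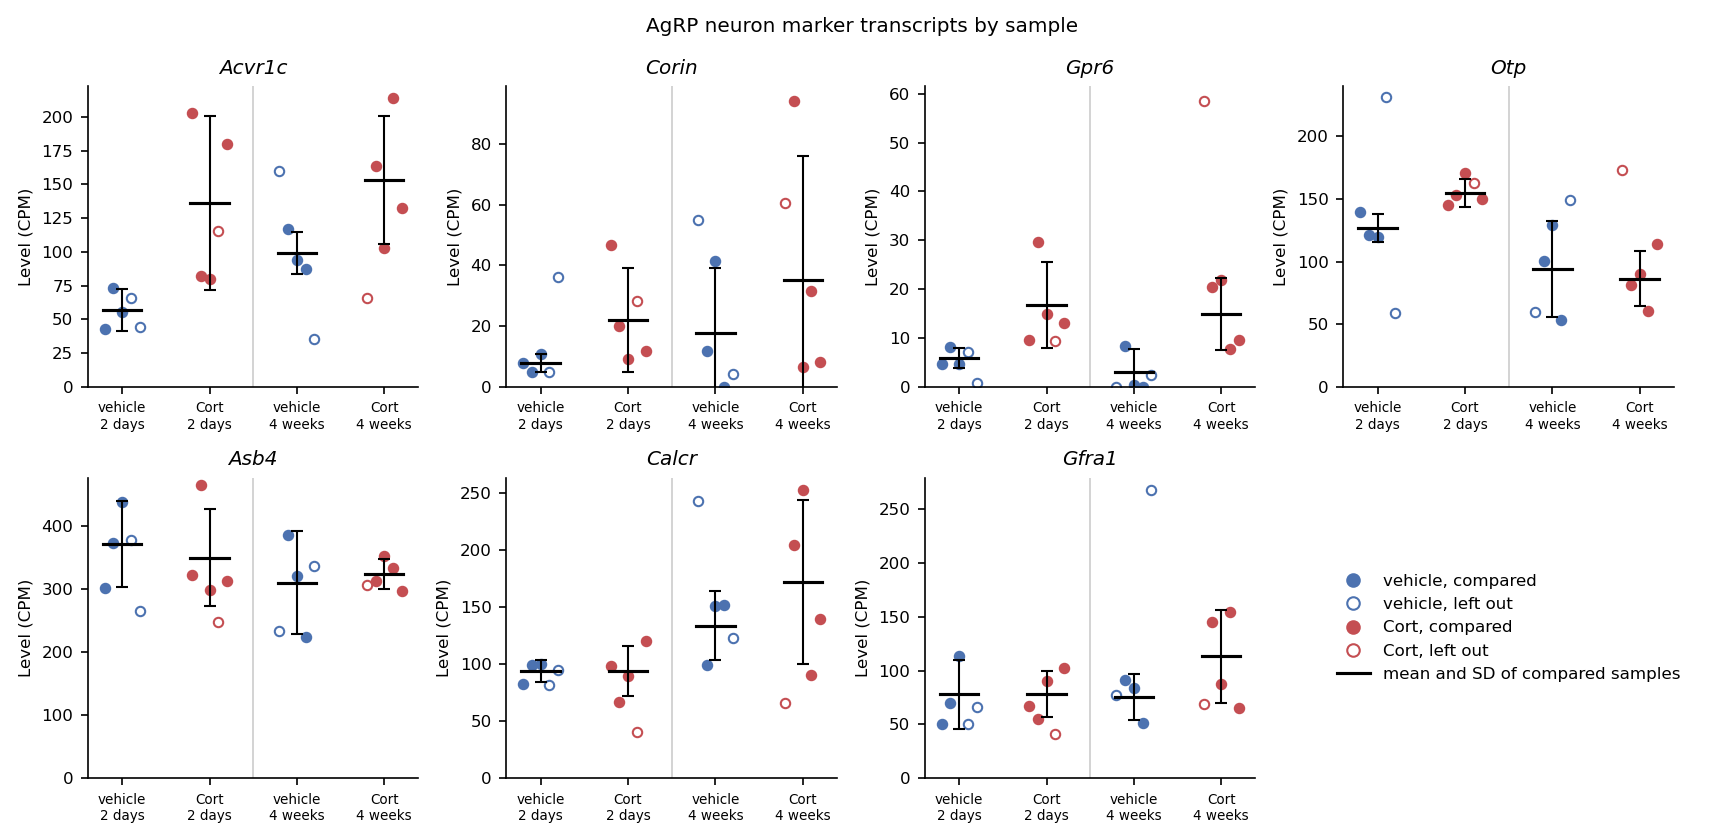
Levels (CPM, vertical axes) of the 7 marker genes in each sample of the 4 groups, with filled points for samples compared, open points for samples left out, and the mean and SD of the compared samples as black lines, which are clipped at 0. Acvr1c and Gpr6 have every 2 day Cort point, open or filled, above every 2 day vehicle point, whereas Asb4, Calcr and Gfra1 overlap throughout.

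After 4 weeks of Cort, Npy was 4.97-fold lower and Agrp was not called. Npy was at 541, 317 and 476 CPM in vehicle samples C02, C03 and C04 and at 181, 74.1, 49.0 and 55.02 CPM in Cort samples C07, C08, C09 and C10. The highest Cort sample was below the lowest vehicle sample. The log2 fold change was -2.31 (standard error 0.41, adjusted p = 0.0966, edgeR over 11211 genes), and Npy was 1 of 5 genes called (0.0446%). It was the only member with p below 0.05, which 4.91% of all genes had and 1.95% had in the lower direction, and the only one separate and lower with Cort, as 3.3% of all genes were. The call lay close to the threshold. It was lost when any sample compared other than Cort sample C07 was left out (log2 fold changes of -2.50 to -2.12, adjusted p of 0.42 to 0.64), and also when left-out vehicle sample C01 (-1.96) or C05 (-2.11) or Cort sample C06 (-1.84) was added. C01, with 48.7 CPM, was the lowest vehicle sample. In the 10 samples together the log2 fold change was -1.34 (adjusted p = 0.99), no member was called, where 0.00962% of genes were, and 2 members, Npy and Gpr6, had p below 0.05, where 4.9% of genes did. The fit with quality weights (voom) over all 10 samples gave -2.20 for Npy (adjusted p = 0.43), also without a call. DESeq2 on the 7 samples gave -2.32 (adjusted p = 0.000563).

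Agrp at 4 weeks was at 289.8, 154 and 199.7 CPM in vehicle samples C02, C03 and C04 and at 232, 147, 119 and 100.2 CPM in Cort samples C07, C08, C09 and C10. The groups overlapped, and the log2 fold change was -0.53 (standard error 0.37, adjusted p = 0.99, edgeR). The left-out samples had 134, 18.0 and 87.5 CPM (C01, C05 and C06). Pomc did not follow Npy. It averaged 189.7 ± 27.8 CPM in vehicle samples (SD, n = 3) and 188 ± 47.9 CPM in Cort samples (SD, n = 4), and its log2 fold change was -0.02 (standard error 0.32).

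Acvr1c, Gpr6 and Corin had higher means with Cort at 4 weeks, as at 2 days, but spread widely and none passed the test. Acvr1c was at 117, 94.1 and 87.3 CPM in vehicle samples C02, C03 and C04 and at 164, 103, 214 and 133 CPM in Cort samples C07, C08, C09 and C10. The groups met between 103 and 117 CPM, and the log2 fold change was 0.61 (standard error 0.38, adjusted p = 0.99, edgeR). Gpr6 was at 8.45, 0.402 and 0 CPM in the same vehicle samples and at 20.4, 21.9, 7.73 and 9.53 CPM in the same Cort samples. The groups overlapped at C02. Vehicle samples C03 and C04 held 1 and 0 counts, and 0 counts in C04 allow up to 1.45 CPM, a limit that covers counting error only. The fitted log2 fold change of 2.29 (standard error 1.49) therefore depends on the prior count and on C02, without which it was 5.92. Corin ran from 0 to 41.4 CPM with vehicle and from 6.43 to 94.1 CPM with Cort, at a log2 fold change of 0.96 with a standard error of 1.24.

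Otp averaged 94.3 ± 38.3 CPM in vehicle samples (SD, n = 3) and 86.5 ± 21.9 CPM in Cort samples (SD, n = 4) at 4 weeks, and Asb4 had 310.4 ± 81.1 and 324 ± 24.0 CPM. Calcr had 134 ± 30.2 and 172 ± 71.4 CPM and Gfra1 75.6 ± 21.6 and 113 ± 43.6 CPM, again in the order vehicle and Cort. The groups overlapped in all 4 genes, and the log2 fold changes were -0.14, 0.05, 0.35 and 0.57 with standard errors of 0.45, 0.26, 0.39 and 0.46. The median over the 9 members was 0.35, with 6 higher and 3 lower, against 0.04 over all genes. When all 10 samples were compared at 5 against 5, no member had separate groups at 4 weeks, and 0.919% of all genes did.

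**Figure D3:**
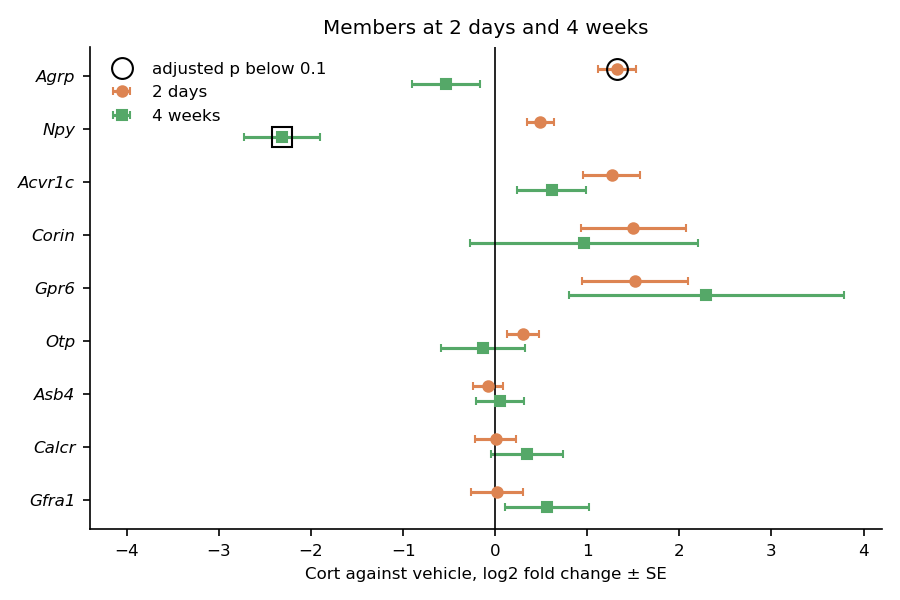
Log2 fold change of Cort against vehicle (horizontal axis, with its standard error as bars) of the 9 members at 2 days (circles) and at 4 weeks (squares), from the 7 samples compared per dataset. Black outlines mark an adjusted p below 0.1, which Agrp had at 2 days (1.32) and Npy at 4 weeks (-2.31).

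The Cort effects of the 2 datasets were then compared directly in 1 edgeR fit of the 14 samples. Npy differed by -2.80 on the log2 scale (standard error 0.47, adjusted p = 0.0677), from 0.49 at 2 days to -2.31 at 4 weeks, and was 1 of 2 genes called of 12777 (0.0157%). Agrp differed by -1.85 (standard error 0.42, adjusted p = 0.70) and was not called. These were the members with p below 0.05, as 6.49% of all genes were. The Npy call was lost over all 20 samples (-1.70, adjusted p = 0.72) and without 9 of the 14 samples in turn, with log2 differences of -3.40 to -2.62 over all 14. DESeq2 called both Npy (adjusted p = 0.000112) and Agrp (0.0284). Acvr1c (-0.65, standard error 0.50), Corin (-0.52, 1.47), Gpr6 (0.77, 1.45), Otp (-0.43, 0.43), Asb4 (0.13, 0.31), Calcr (0.35, 0.45) and Gfra1 (0.55, 0.54) did not pass the test, each given with its standard error.

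The ratio of Agrp to Npy counts within a sample needs no scaling between samples, and it was higher with Cort in both datasets. At 2 days it was 0.398, 0.462 and 0.472 in vehicle samples C02, C04 and C05 and 0.952, 0.913, 0.583 and 0.737 in Cort samples C01, C03, C06 and C10. At 4 weeks it was 0.536, 0.485 and 0.420 in vehicle samples C02, C03 and C04 and 1.28, 1.98, 2.41 and 1.82 in Cort samples C07, C08, C09 and C10. Vehicle samples of both datasets thus held about the same ratio, with log2 means of -1.18 ± 0.13 and -1.07 ± 0.18 (SD, n = 3 each). The log2 ratio differed by 0.82 at 2 days and by 1.93 at 4 weeks. Each gave p = 0.0571 in a 2-sided exact permutation test, the smallest that 3 samples against 4 allow, and 0.0571 after Benjamini-Hochberg adjustment over both. At 2 days the ratio went with a higher Agrp and at 4 weeks with a lower Npy. The direction at 2 days rests on the raw column names: under the normalised table's names the log2 ratio averaged -0.91 in 4 Cort columns and -0.44 in 3 vehicle columns, a difference of -0.47 (exact permutation p = 0.286).

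The samples left out did not keep this pattern. At 2 days vehicle samples C07 and C09 had ratios of 0.879 and 0.760, and over all 10 samples the difference was 0.56 (exact permutation p = 0.0714, where 0.00794 is the smallest possible). At 4 weeks vehicle sample C01 had a ratio of 2.74, vehicle sample C05 0.0889 and Cort sample C06 0.325, and the difference over all 10 was 1.42 (exact permutation p = 0.167). The 4 week vehicle group thus ranged over more than the whole span of the Cort group.

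Npy against Pomc, a ratio chosen after the values were seen and so not tested, separated the 4 week groups in all 10 samples. It was 2.50, 1.65 and 2.96 in vehicle samples C02, C03 and C04 and 2.38 and 2.64 in left-out vehicle samples C01 and C05. Cort samples C07, C08, C09 and C10 had 0.920, 0.360, 0.409 and 0.239 and left-out Cort sample C06 had 1.26. The low Npy of vehicle sample C01 was thus accompanied by low Pomc (20.2 CPM). At 2 days the same ratio was 1.03 to 1.41 with vehicle and 0.979 to 1.52 with Cort in the samples compared.

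**Figure D4:**
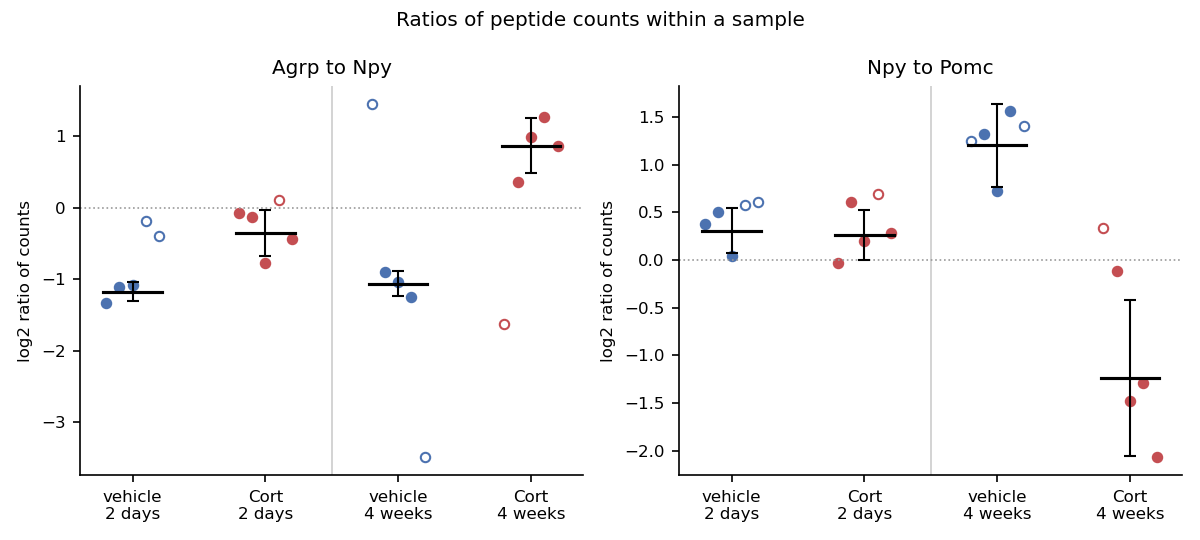
Log2 ratio of counts within each sample (vertical axes) for Agrp to Npy (left) and Npy to Pomc (right) in the 4 groups, with filled points for samples compared, open points for samples left out, black lines for the mean and SD of the filled points and a dotted line at equal counts. Filled Cort points lie above filled vehicle points for Agrp to Npy in both datasets, while 4 week Npy to Pomc is lower in all 5 Cort samples than in all 5 vehicle samples.

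Within groups, Agrp and Npy varied together. After each group's mean was subtracted from log2 CPM, Pearson's r was 0.83 over the 14 samples (p = 0.000960, permutation within groups, 100000 resamples) and Spearman's rho 0.83 (p = 0.00128, permutation), the only relation tested in this way. Without the 2 samples farthest from the median of Agrp, r was 0.86. It was 0.76 in the 7 samples of the 2 day dataset and 0.92 in the 7 of the 4 week dataset, but 0.36 over all 20 samples. Both values of a point come from 1 library, and 16 other genes of 11015 had a higher correlation with Agrp than Npy had. Over the same samples the correlation of Agrp was 0.54 with Gpr6, 0.47 with Acvr1c, 0.35 with Asb4, 0.28 with Gfra1, 0.26 with Corin and 0.22 with Calcr, and 0.32 with Pomc. Otp went the other way, at -0.26 over the 14 samples and -0.93 in the 7 of the 2 day dataset.

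**Figure D5:**
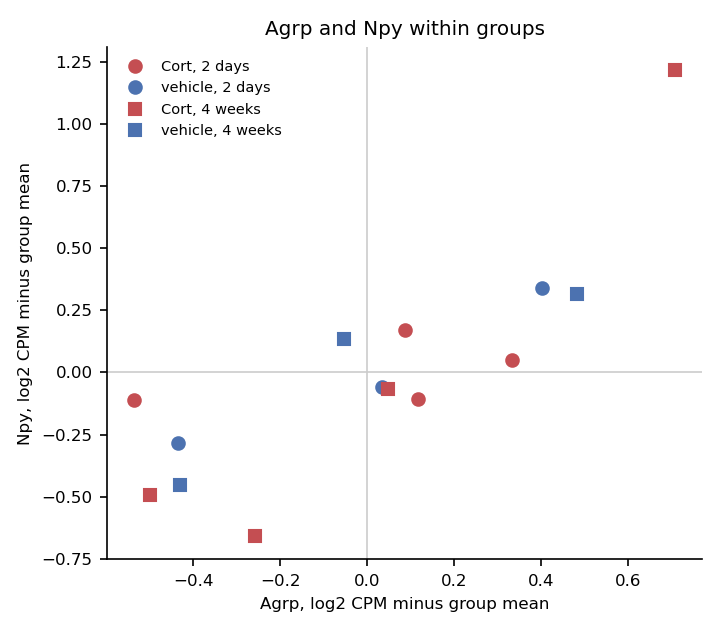
Npy against Agrp in the 14 samples compared, both as log2 CPM minus the mean of the sample's group, with circles for 2 days, squares for 4 weeks, blue for vehicle and red for Cort. The points rise together (Pearson's r of 0.83).

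By the same measure the 5 genes most like Agrp were Samd15 (0.90), Ppp2r2a (0.89), Dph3 (0.88), Pdzd11 (0.87) and Stox1 (0.87). Those most like Npy were Tjp1 (0.95), Srrt (0.93), Ppp2r2a (0.93), Cnpy3 (0.93) and Sars2 (0.92). They are descriptions over 14 samples. Of the 5 genes of Agrp, 0 stayed among its first 5 over all 20 samples and 1 by Spearman's correlation, and of those of Npy 1 (Tjp1) and 2 (Tjp1 and Ppp2r2a) did.

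Genes around the members were read from lists of known roles. Of the glucocorticoid-induced genes, 14 of 15 tested had a higher estimate with Cort at 2 days, where 52.1% of all genes did. Of these 2 were called (Fam107a, 0.98, adjusted p = 0.00480, and Glul, 0.54, adjusted p = 0.0420, edgeR). The list median was 0.62 against 0.02 over all genes. Its summed level was 1930 to 2271 CPM with vehicle and 2950 to 3705 CPM with Cort in the samples compared. Left-out vehicle samples C07 and C09 had 3241 and 2511 CPM and left-out Cort sample C08 had 5462 CPM. Mt1 and Mt2 were at 0.63 and 0.90, Errfi1 at 0.09 and Fkbp5 at 1.57 without passing. At 4 weeks 11 of 14 were higher, where 51.9% of all genes were, with a median of 0.48 against 0.04. Fam107a was called (1.44, adjusted p = 0.0966, edgeR), and Fkbp5 was at -0.22. Fam107a, Glul, Fkbp5 and Mt2 are also genes that the study itself names from these samples, so they are no independent evidence.

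Receptors and modulators through which AgRP and NPY act were not called in either direction at either time, 9 having been tested at 2 days (median 0.16) and 8 at 4 weeks (median -0.08), against 0.02 and 0.04 over all genes. The most abundant were Sdc3, a syndecan that assists AgRP (0.16 and 0.09), Atrn (0.21 and 0.23), Npy1r (-0.08 and -0.83) and Npy2r (0.33 and -0.30), given as log2 fold changes at 2 days and 4 weeks. The enzymes and chaperones that process the peptide precursors were likewise not called, with 8 tested each time and medians of -0.08 and -0.29. In this list Cpe stood at -0.06 and -0.21, Pcsk1n at 0.09 and -0.37, Pam at -0.25 and -0.03 and Pcsk2 at -0.10 and -0.10.

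Of the hormone receptors and transcriptional regulators known to act on Agrp and Npy, 14 were tested at each time and none was called, with medians of 0.15 and -0.03. At 2 days 3 had p below 0.05, all higher, where 3.14% of all genes were. Ucp2 (0.36), a mitochondrial carrier that AgRP neurons need for their response to fasting, was one, and the leptin receptor Lepr (1.37, adjusted p = 0.69) and the ghrelin receptor Ghsr (0.81, adjusted p = 0.69), named after their values were seen, were the others. Nr3c1, the glucocorticoid receptor, was at 0.26 and -0.56, Stat3 at 0.09 and -0.06 and Creb1 at 0.16 and 0.45. At 4 weeks 0 of the 14 had p below 0.05.

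GABA is the fast transmitter of AgRP neurons but is also made by many other ARC neurons. At 2 days Gad2 (-0.30), Gad1 (-0.32) and Slc32a1 (-0.18) were all lower without being called. Their summed level was 1497 to 1698 CPM with vehicle and 1215 to 1448 CPM with Cort, without overlap in the samples compared. Left-out vehicle sample C07 had a sum of 971 CPM, below every Cort sample, so the groups overlapped over all 10 samples. At 4 weeks these genes were at -0.10, -0.16 and -0.51 and the sums overlapped. Ligands and partner receptors of ALK7, corin, CALCR and GFRA1 gave no call among 8 genes tested at 2 days (median -0.33) and 7 at 4 weeks (median -0.06). In the samples compared, the sums of these partners were lower with Cort at 2 days, at 1183 to 1224 CPM with vehicle and 872 to 1107 CPM with Cort. Left-out vehicle samples C07 and C09 had sums of 775 and 945 CPM, so the groups overlapped over all 10 samples. The most abundant partner genes were Ncam1 (-0.29 and -0.15), Gfra2 (-0.06 and -0.52), Acvr2a (-0.26 and 0.97) and Acvr1b (-0.37 and -0.06). Gdf3, Iapp and Nppb had 0 counts in all 7 samples compared at 2 days, and Tdgf1, Gdf3, Gdnf and Nppb at 4 weeks.

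Markers of other cells moved with Cort in places, and their part in the members' results was not tested. At 2 days the summed level of 7 oligodendrocyte markers was 688 to 765 CPM with vehicle and 784 to 1269 CPM with Cort. These sums did not overlap in the samples compared, and 6 of the 7 genes were higher. Left-out vehicle samples C07 and C09 had sums of 1826 and 1236 CPM, so the groups overlapped over all 10 samples. Mobp, a myelin gene, was called in the samples compared (1.72, adjusted p = 0.00324, edgeR). Beside the Otp value stand 6 genes of other Otp-expressing neurons of the hypothalamus, whose sum was 609 to 710.4 CPM with vehicle and 581 to 1058 CPM with Cort at 2 days. Of these, Avp (2.13) and Oxt (1.46) had p below 0.05 without being called, and Sst was at 0.17. Pan-neuronal genes summed to 4115 to 4413 CPM with vehicle and 3939 to 4504 CPM with Cort at 2 days, and the sums of 5 POMC neuron markers (869 to 1009 and 879 to 1280 CPM) and 5 KNDy neuron markers (311 to 429 and 314 to 380.3 CPM) overlapped. Markers of the ventromedial nucleus, which borders the ARC, summed to 49.4 to 82.1 and 57.7 to 89.1 CPM.

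At 4 weeks the sums of 3 marker lists were separate and higher with Cort in the samples compared, in the direction opposite to Npy. The sum of the oligodendrocyte markers, with 6 of 7 genes lower (median -0.50), overlapped. It ran from 1164 to 1333 CPM with vehicle and from 512 to 1242 CPM with Cort. Pan-neuronal genes summed to 3004 to 3146 CPM with vehicle and 3234 to 3911 CPM with Cort, astrocyte markers to 3499 to 3676 and 3953 to 5464 CPM, and KNDy neuron markers to 90.0 to 181 and 218 to 389 CPM. Left-out vehicle sample C05 had 3607 CPM of pan-neuronal genes, 4834 CPM of astrocyte markers and 330 CPM of KNDy neuron markers. With it added, the sums of all 3 lists overlapped between groups. Higher estimates with Cort were found for 5 of 8, 6 of 8 and 3 of 4 of the tested genes of these lists. Tanycyte markers, from cells that line the ventricle beside the ARC, were lower in estimate (median -0.59) with overlapping sums of 850.5 to 1130.2 and 423 to 901 CPM. No gene of these 5 lists was called at 4 weeks.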

How the data were processed

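Amplified RNA of the captured ARC was read from a single end over 50 bp. Per the labels and the study's methods, the authors aligned reads to GRCm38 with Rsubread, assigned them with featureCounts and deposited raw counts for all 20 samples, and, for the 14 samples they kept, a normalised signal (counts over DESeq2 size factors), used here only to compare column names. The annotation release and the strand and multi-mapping settings are not given in the sources used here. The deposited fold changes and p-values of the authors' DESeq2 comparison were not used. Column names were tied to groups by the study's sample list, and the labels do not say more of the samples than replicate numbers, so p-values measure the spread between these samples.

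Raw counts were filtered with filterByExpr, scaled by TMM and tested 2-sided by edgeR's quasi-likelihood test (edgeR 4.0.16, R 4.3.3), with Benjamini-Hochberg adjustment over all genes tested and a call at an adjusted p below 0.1. Log2 CPM carried a prior count of 2, and ratios of counts a pseudocount of 0.5. Alternatives were DESeq2 1.42.0, its size factors in edgeR, upper quartile scaling, no filter, a minimum of 10 counts per sample, all samples together, voom with quality weights (limma 3.58.1) and leaving out each sample. Adding single left-out samples and regrouping by the normalised table's names were chosen after seeing the data. The fits were tested on counts simulated with edgeR's own estimates of the spread, so the comparison is not neutral between the tools. In these data DESeq2 made more false calls than edgeR in both datasets. Recovery was a share of the changed genes that each tool tested, 87 to 96 for edgeR after its filter and 100 for DESeq2. The share was higher for DESeq2 at a log2 change of 2 and for edgeR at 3, in both datasets. At 4 weeks and a log2 change of 3 it was 67.8% of 87 genes for edgeR and 65% of 100 for DESeq2. These shares have unlike bases and do not rank the tools. The members and gene lists were chosen with earlier results of these data known. Besides the members, the text names Pomc, the 5 genes most correlated with Agrp and with Npy, and from each list the genes called and at most 4 others of highest mean CPM, apart from genes stated to be chosen later and from some left out. Other lists not described with the results (dopamine and GHRH neurons, ependyma, microglia, endothelium and pericytes, choroid plexus) gave no call at either time. Counting limits cover counting error only, as amplified reads are not independent molecules.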

Additional observations from a re-analysis of the deposited data

Results flagged for a closer look

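The change of Npy with Cort differed between the datasets by the test of that difference, at -2.80 on the log2 scale (4 weeks minus 2 days, adjusted p = 0.0677 by edgeR over the 14 samples compared). It was -1.70 over all 20 samples, with an adjusted p of 0.72.

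In each of the 4 groups of 5 samples, the highest and lowest level of each member was set against the rest by Dixon's criterion (0.71 for 5 samples). Of 36 groups of values 5 had a sample standing apart, where chance flags about 1 in 20. Npy was 857 CPM in 2 day Cort sample C08, against 489 to 595 CPM in the other 4. Corin was 36.2 CPM in 2 day vehicle sample C09, against 4.74 to 10.8 CPM. Gpr6 was 58.6 CPM in 4 week Cort sample C06, against 7.73 to 21.9 CPM. Gfra1 was 268 CPM in 4 week vehicle sample C05, against 51.0 to 91.6 CPM. These 4 samples are among those that the study left out. The fifth was among the samples compared: Gpr6 was 29.6 CPM in 2 day Cort sample C03, against 9.42 to 14.8 CPM in the others, and without C03 its log2 fold change at 2 days was 1.10.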

How the results depend on the processing

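No paired analysis was possible because the count columns do not carry the replicate numbers of the labels. The paper describes no pairs either, only an assignment of mice to groups of equivalent baseline body weight. Equal replicate numbers in vehicle and Cort groups are therefore not known to mark paired mice. At 2 days 8 genes were called. The count was 52 with DESeq2, 24 without the filter, 2 over all 10 samples, 4 with voom weights over all 10, 1 and 3 with left-out vehicle samples C07 and C09 added, and 0 under the normalised table's names, where 599 genes had p below 0.05. Leaving out 1 sample gave 1 (without vehicle sample C02) to 16 genes (without Cort sample C06). At 4 weeks 5 genes were called, against 67 with DESeq2, 9 without the filter, 3 with upper quartile scaling, 1 over all 10 samples, 3 with left-out vehicle sample C01, and 0 with C05 or C06 added (514 and 457 genes at p below 0.05). Leaving out 1 sample gave 0 to 10 genes, with 10 without Cort sample C07 and 0 without C03, C04, C08, C09 or C10 and 479 to 532 genes at p below 0.05. For the difference between datasets the 2 genes became 67 with DESeq2 and 0 over all 20 samples (779 at p below 0.05), and 0 to 3 when 1 sample was left out, where the runs at 0 had 594 to 1057 genes at p below 0.05 by edgeR. Calls for members followed: DESeq2 called Agrp and Acvr1c at 2 days, Npy at 4 weeks, and both peptides in the difference, and edgeR also called Acvr1c at 2 days without the filter (adjusted p = 0.0171) and without Cort sample C06 (0.0496).

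Under the normalised table's names 5 members changed sign at 2 days: Agrp -0.64, Npy -0.20, Acvr1c -0.43, Corin -1.26 and Gpr6 -0.75. The other changes of sign were in members without a call. Calcr at 2 days was -0.0107 with upper quartile scaling, -0.00059 without the filter, -0.13 over all 10 samples and -0.17 with voom, and at 4 weeks -0.0496 and -0.0509 in the last 2. Over all 10 samples at 4 weeks Otp was 0.0621 and Gfra1 -0.16, and Gfra1 was -0.17 in the difference over all 20. Leaving out 1 sample turned the sign of Calcr (-0.14 to 0.13), Gfra1 (-0.22 to 0.39) and Asb4 (-0.25 to 0.0655) at 2 days, of Corin (-0.22 to 2.54), Otp (-0.41 to 0.17) and Asb4 (-0.13 to 0.25) at 4 weeks, and of Corin (-1.72 to 1.03) and Asb4 (-0.0545 to 0.33) in the difference. The cause was not tested. The ratio of Agrp to Npy at 2 days turned to -0.47 under the normalised table's names, an alternative added after seeing the data. Under the others run it was 0.56 to 0.96 at 2 days and 1.42 to 2.11 at 4 weeks, and leaving out 1 sample gave 0.72 to 0.96 and 1.80 to 2.11. Counts limit Gpr6 at 4 weeks, with 1 and 0 counts in vehicle samples C03 and C04.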
